A study of Mus musculus with 17 samples.

Results

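The leptotene/zygotene (LZ) sort of *Nat10*-SKO testes was set against the pre-leptotene (PreL) sort of WT testes, the stage that comes before LZ in normal development. Each sort had 3 libraries, which were 6 of the 17 libraries of the series, and they were chosen by genotype and stage as labelled. The question was how near the mutant LZ sort lay to the normal preceding stage and what differed from it. SKO mice carried the genotype labelled Stra8-cre_Nat10_KO, in which a Cre knocked into the *Stra8* locus excises floxed *Nat10* exons 4 and 5 once a germ cell switches *Stra8* on, and their strain was labelled C57BL/6. The study writes the mutant genotype as *Nat10* fl/- with *Stra8*-Cre, that is, with a floxed allele and a null one. WT mice were labelled Wildtype and were of the same strain. Both cell types were sorted from testis suspensions by DNA dye staining, so the stage name of a library is the name of its sorting gate. The study reports a purity check of sorted cells by immunofluorescence. In its counts most cells of the pre-leptotene and of the LZ sort were of the named stage. The genotype of the counted cells is not stated there. Genotype and gate change together in this pair, and the part of each in a difference cannot be told apart. The other 11 libraries, WT and SKO spermatogonia (SPG), SKO PreL and WT LZ, serve here only to place the 6.

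*Nat10* encodes the acetyltransferase that writes N4-acetylcytidine (ac4C) in RNA. Spermatogonia divide by mitosis, and retinoic acid then switches on *Stra8*, after which pre-leptotene spermatocytes carry out the last round of DNA replication before meiosis. In leptotene and zygotene the chromosomes build an axis, receive programmed double-strand breaks and begin to pair. Genes of the pachytene spermatocyte and of the spermatid, the haploid cell that packs its DNA with protamines, come on in later cells.

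The deposited table gave 23282 gene symbols with counts already scaled by the ERCC spike-in RNA of each library, and whole reads were recovered from it. SKO LZ libraries held 5812380 to 7609420 reads and WT PreL libraries 10574858 to 10724364. The calibrated total was 59005478 ± 2156003 (SD, n = 3) in SKO LZ and 15616198 ± 2075557 (n = 3) in WT PreL, a ratio of 3.78 with p = 0.1 in a two-sided exact permutation test, the smallest p that 3 against 3 libraries allow. The study's methods state that the calibration also took account of how many cells went in, and how far it did so was not tested. Values below are rescaled counts, in which median-of-ratios size factors set the 6 libraries to a common scale, and where 1 read was worth 4.12 to 6.32 units in SKO LZ and 2.39 to 2.66 in WT PreL. The other libraries were put on the same scale. The labels do not say whether the replicates came from separate animals, so p-values measure the spread between these libraries, which may be technical.

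The targeted gene was lower in the mutant sort. *Nat10* (chr2:103721256-103761270, minus strand, GRCm38) had 45, 52 and 61 reads in SKO LZ replicates 1, 2 and 3 and 377, 385 and 248 in WT PreL replicates 1, 2 and 4. The rescaled counts were 285, 214 and 297 against 900.3, 981 and 660.2, without overlap (log2 fold change of -1.63, SE 0.23, limma adjusted p = 0.00024). The table gives 1 value per gene, so the exons and the cells that gave the remaining reads were not tested. Germ cell markers were high in both sorts. *Dazl*, an RNA-binding protein of germ cells, had means of 80749 ± 4491 in SKO LZ and 61109 ± 8891 in WT PreL, and the RNA helicase *Ddx4* had 16555 ± 396 and 11585 ± 835. Neither gene was called, at log2 fold changes of 0.41 and 0.52.

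The mutant LZ sort lay nearest to the mutant PreL sort and not to the normal one. Distance was the root mean square difference in log2 level per gene between a pair of libraries. Between SKO LZ and WT PreL libraries it was 1.43 to 1.57 (9 pairs, median 1.49), against a median of 0.502 among the SKO LZ libraries and 0.785 among the WT PreL libraries. Between SKO LZ and SKO PreL it was 0.777 to 1.24 (median 0.975), and pairs with SKO PreL replicate 3 alone gave 1.11 to 1.24. SKO SPG followed at a median of 1.33, and WT LZ, the sort with the same gate, was farthest at 1.96. WT PreL and WT SPG were not told apart as neighbours of the mutant LZ sort, since WT SPG gave 1.44 to 1.53 (median 1.46) and the ranges overlap. For each of the 3 SKO LZ libraries the nearest group was SKO PreL, and it stayed so with the calibrated values as deposited, with TMM scaling and with pseudocounts of 1 and 50. SKO PreL replicates 1 and 2 resembled SKO LZ in summed Sertoli markers too, at 62119 and 65602, while replicate 3 had 10268 (SKO LZ 59213 to 70954, WT PreL 11769 to 14471). The part of such markers in the distances was not tested.

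**Figure D1:**
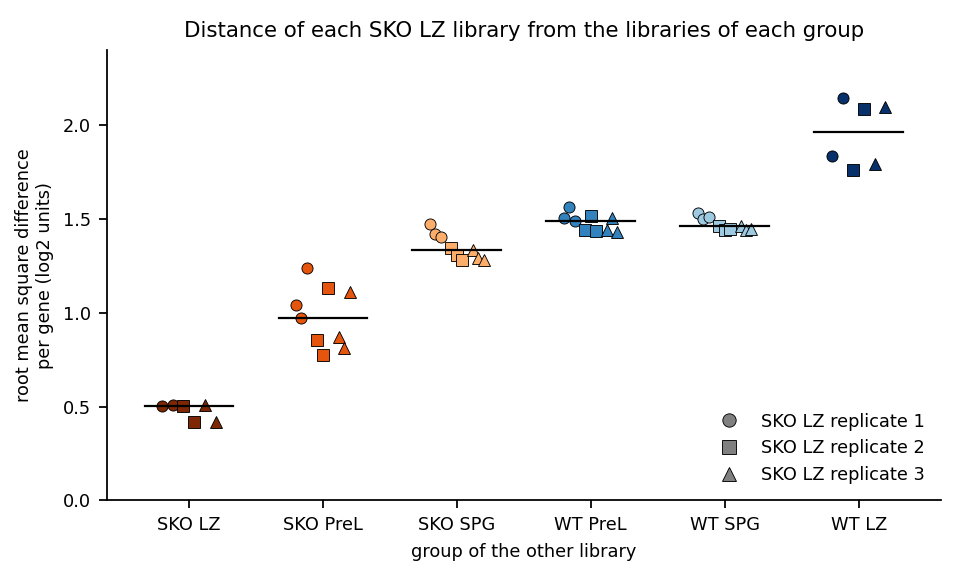
Distance from each SKO LZ library to the libraries of each group, as the root mean square difference in log2 level per gene on the vertical axis, with 1 point for each pair of libraries. SKO PreL pairs run from 0.777 to 1.24 and WT PreL pairs from 1.43 to 1.57, a range that overlaps that of WT SPG, and WT LZ lies highest with a median of 1.96.

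Counts of called genes gave the same picture with other units. A gene was called when limma's adjusted p was under 0.05 and the fold change above 2. Of 12527 genes tested between SKO LZ and WT PreL, 1510 were lower in SKO LZ (12.1%) and 2196 higher (17.5%), 8821 (70.4%) were not called, and the median absolute log2 fold change was 0.63. SKO LZ against SKO PreL gave 865 lower (6.93%) and 1319 higher (10.6%) of 12477. SKO LZ against WT LZ, which had 2 libraries, gave 3534 lower (25.8%) and 1837 higher (13.4%) of 13724. These comparisons share the SKO LZ libraries, and the differences between their counts were not tested. For scale, WT LZ against WT PreL gave 1073 lower (7.8%) and 2585 higher (18.8%), SKO PreL against WT PreL gave 765 lower (5.83%) and 701 higher (5.34%), and WT PreL against WT SPG gave 153 lower (1.21%) and 322 higher (2.54%).

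The direction of many changes depends on the scale. With the ERCC-calibrated values as deposited, 524 genes were lower and 9100 higher, so 5.44% of calls were lower in place of 40.7%, since the median gene then shifted by 1.51 on the log2 scale. Directions below are relative to the median gene of the 6 libraries.

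Genes that differed between WT SPG and WT LZ were placed on a scale from 0% (mean of WT SPG) to 100% (mean of WT LZ). On the 3218 genes called higher in WT LZ than in WT SPG (23.2% of those tested), SKO LZ libraries stood at 9.73%, 10.8% and 9.55% of the way and WT PreL libraries at 25.9%, 40.2% and 16.1%. Every SKO LZ library was thus below every WT PreL library on these genes, although its gate bore the later stage name. SKO PreL libraries stood at 7.49%, 11.6% and -3.15%, a range that holds the SKO LZ values. On the 1329 genes lower in WT LZ (9.58%), SKO LZ stood at 20.4% to 24.4% and WT PreL at 18.5% to 37.5%, with overlap. The WT libraries that picked the genes define the ends of this scale, so these positions are a description without a test. Summed markers of other cells differed between those ends too, at 7287 to 8794 in WT SPG and 27189 to 80788 in WT LZ for Sertoli cells and at 10093 to 13190 and 126465 to 303828 for pachytene spermatocytes. For spermatids they were 5024 to 11882 in WT SPG and 32538 to 36712 in WT LZ. The spermatid sum was also 22494 to 35569 in WT PreL and 400.1 to 512 in SKO LZ. WT PreL replicate 2, the farthest along at 40.2%, also had the highest pachytene sum of the WT PreL libraries (48022 against 20093 and 24574). The part of these markers in the positions was not tested. Of the LZ-higher genes, 2589 were tested between SKO LZ and WT PreL, and 754 were lower (29.1%) and 542 higher (20.9%), beside 12.1% and 17.5% of all genes. Their median log2 fold change was -0.29, beside -0.03 over all genes.

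**Figure D2:**
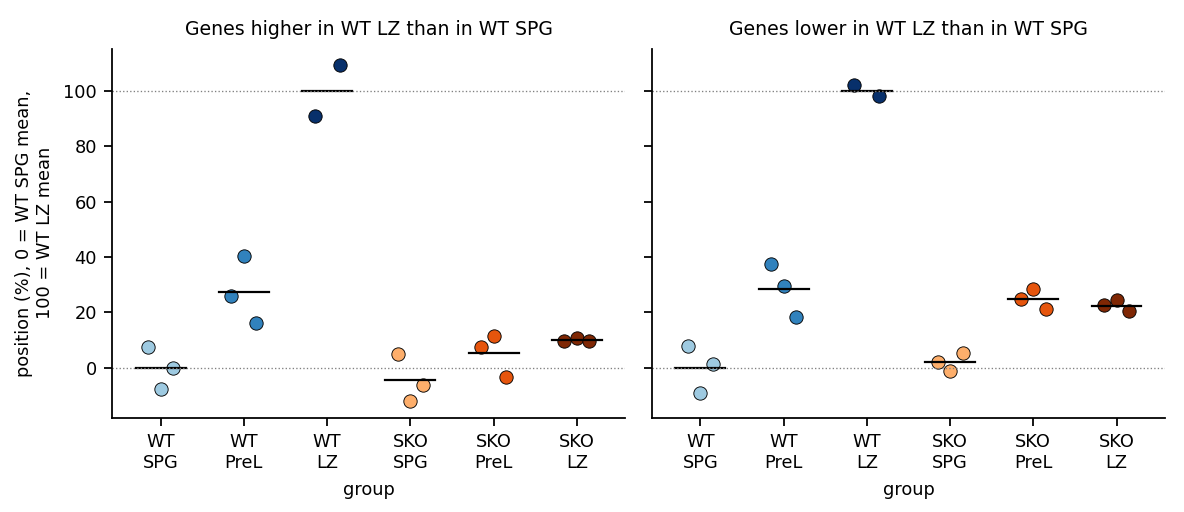
Position of each library on the way from the mean of WT SPG (0%) to the mean of WT LZ (100%), in percent, for genes higher and genes lower in WT LZ. SKO LZ points sit between 9.55% and 10.8% for the higher genes, below the WT PreL points at 16.1% to 40.2%.

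Spermatid and pachytene spermatocyte lists had the lowest medians of all the gene lists. Over all genes, 12.1% were lower and 17.5% higher. Of 23 spermatid genes tested, 21 fell and none rose, with a median log2 fold change of -4.86. Of 22 pachytene spermatocyte genes, 13 fell and 1 rose, with a median of -1.69. The spermatid median stayed negative with the calibrated values as deposited (-3.93) and with TMM (-4.85), while the pachytene median moved to -0.23 as deposited, with 9 lower and 7 higher. Of all 1510 genes called lower, 209 had 0 reads in every SKO LZ library and 184 were more than 16-fold lower. The 209 passed the read filter on their WT PreL reads alone. Any gene near 0 in SKO LZ could pass it only on its WT PreL reads. The whole spermatid list had 81, 97 and 84 reads in SKO LZ replicates 1, 2 and 3. The shares of both lists that fell thus partly follow from the filter.

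Nuclear packaging genes stood out by size. *Tnp2* (chr16:10787936-10788660, minus strand), a transition protein that replaces histones before protamines do, had rescaled counts of 19, 0 and 9.75 in SKO LZ and 6403, 9647 and 4957 in WT PreL (log2 fold change of -8.56, SE 0.39, limma adjusted p = 5.3e-07). The protamine *Prm1* (chr16:10796326-10805839, minus strand) had 1, 2 and 2 reads in SKO LZ and 2840, 2242 and 1490 in WT PreL, with a log2 fold change of -8.22. *Prm2* (chr16:10791380-10796134, minus strand), next to it on the same chromosome, had 1, 0 and 0 reads against 1686, 1664 and 1213, a WT PreL level higher by 2329-fold (95% counting interval 418 to 92007). For each of the 3 genes the WT PreL libraries lay far above a group in which almost no read was seen. *Tnp1* kept more reads, at 10, 22 and 17 in SKO LZ and 1358, 1749 and 1168 in WT PreL (log2 fold change of -5.34, SE 0.22, limma adjusted p = 2.88e-07). The antisense transcript *1700027A15Rik* overlaps *Tnp1*, and without strand their reads cannot be told apart. Its WT PreL level was higher by 629.6-fold (95% counting interval 174 to 5201). Counting intervals and floors here cover counting error only.

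Other spermatid and pachytene genes followed. *Hmgb4*, a testis HMG-box protein, and *Ms4a5* had no read in any SKO LZ library, so WT PreL was at least 419-fold and at least 215-fold higher against a floor of 3 reads over the SKO LZ group. *1700074P13Rik* was at least 260.1-fold higher in the same way, and *1700016P04Rik* was higher by 769-fold (95% counting interval 138 to 30379.8) on 1 read. *Crisp2*, a secretory protein of sperm, had rescaled counts of 0, 16.5 and 19.5 in SKO LZ and 2524, 4672 and 3184 in WT PreL (log2 fold change of -7.4, SE 0.42, limma adjusted p = 1.38e-06). *4922502D21Rik* fell with it (-6.78). Among metabolic isozymes of meiotic cells, *Ldhc*, a lactate dehydrogenase subunit, had 139, 235 and 190.1 against 6446, 17769 and 4398, and *Pgk2*, a phosphoglycerate kinase, had 0, 12.4 and 4.87 against 1297, 1761 and 886. Their log2 fold changes were -5.36 and -6.42. WT PreL replicate 2 was the highest of the 3 WT libraries for *Ldhc*, *Pgk2*, *Crisp2* and *Tnp2*, and no SKO LZ library overlapped WT PreL for any of them. *Adam3*, a sperm membrane protein, was higher in WT PreL by 513-fold (95% counting interval 91.9 to 20280.0), *Ccna1*, the meiotic A-type cyclin, fell (-1.66), and *Txndc2*, a sperm thioredoxin, fell (-4.59).

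A few genes of both lists went another way. *Nek2*, a centrosome kinase, rose from 1979.7, 2533 and 1802 to 5413, 4377 and 4919 (log2 fold change of 1.23, SE 0.15, limma adjusted p = 9.64e-05). *Pdha2*, the testis pyruvate dehydrogenase subunit, and *Mybl1*, a transcription factor of pachytene cells, were not called, at 0.00 and -0.1. *Izumo1*, which binds sperm to the egg, had a log2 fold change of -0.71 and an adjusted p of 0.292 by limma.

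The spermatid list was low in every SKO library and high in every WT library. The summed rescaled count of the spermatid list was 400.1 to 512 in SKO LZ, 455 to 636 in SKO PreL and 178 to 673 in SKO SPG. It was 22494 to 35569 in WT PreL, 5024 to 11882 in WT SPG and 32538 to 36712 in WT LZ. The WT PreL sort therefore held the defining transcripts of haploid cells in all 3 libraries. Fewer such cells and less of this RNA per cell cannot be told apart from the values of a bulk sort. The study reports that its FACS profiles did not detect haploid round spermatids in SKO testes. The pachytene list summed to 10539 to 13134 in SKO LZ, 20093 to 48022 in WT PreL and 126465 to 303828 in WT LZ. Of the lists' members, 14 pachytene and 19 spermatid genes fell in SKO PreL against the same WT PreL libraries, where 5.83% of all genes fell. The read filter limits these counts in the same way.

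Among regulators of meiotic entry, *Stra8* fell and *Ccnd2* rose. Of 18 genes tested they were the 1 lower and the 1 higher, beside 12.1% and 17.5% of all genes, and the list's median was 0.28. Most of the others differed by less than the fold threshold without overlap, since 6 of the 18 had every SKO LZ library below every WT PreL library and 10 had every one above, beside 30.6% and 29.0% of all genes. *Stra8* (chr6:34920163-34939344, plus strand), the retinoic acid-induced gene that opens meiosis, had rescaled counts of 4534, 4661 and 4685 in SKO LZ and 17302, 16113 and 19734 in WT PreL (log2 fold change of -1.93, SE 0.12, limma adjusted p = 2.38e-06). SKO LZ was thus well below the PreL libraries, which lie close together. Its means elsewhere were 8391 in WT SPG, 10169 in SKO PreL and 4834 in WT LZ, so SKO LZ was near the level of the sort with the same gate. *Stra8* is also the locus that carries the Cre. *Ccnd2*, a cyclin of dividing spermatogonia, had 1049.7, 1221 and 1126 against 198, 135 and 93.2 (log2 fold change of 2.96, SE 0.27, limma adjusted p = 1.78e-05). *Kit*, a receptor of differentiating spermatogonia, *Sohlh1*, a transcription factor of the same cells, and *Rhox13* were not called, at 0.24, 0.54 and 0.02.

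Genes for double-strand breaks were lower in part. Of 11 tested, 5 fell and none rose (median -0.91), beside 12.1% of all genes lower. They were *Ccdc36* (the gene also named *Iho1*), *Tex15*, *Mei1*, *2410076I21Rik* (also named *Rec114*) and *Zcwpw1*, with log2 fold changes of -1.14, -1.1, -1.1, -1.02 and -1.0. *Ccdc36*, which with *2410076I21Rik* helps recruit the break machinery to the axis, had 702, 800.2 and 965 in SKO LZ and 2047, 1473 and 1962 in WT PreL (log2 fold change of -1.14, SE 0.18, limma adjusted p = 0.00045). All 5 lay near the fold threshold. Without SKO LZ replicate 1 only 2 of the list were called, because *Mei1*, *2410076I21Rik* and *Zcwpw1* then missed the fold threshold, with limma adjusted p from 0.000829 to 0.00518, and without replicate 3 of SKO LZ 6 were called, and 3 were with TMM scaling. *Mei1* was also lost without WT PreL replicate 1, *Zcwpw1* without SKO LZ replicate 2 or WT PreL replicate 2 and *Tex15* without WT PreL replicate 4, each by fold alone. *Prdm9*, the methyltransferase that marks break sites, had 993, 978 and 1487 against 1869.9, 1830.0 and 2808 and missed the fold threshold (-0.91). *Spo11*, which cuts the DNA, had 626, 532 and 565 against 258, 563 and 69.2 and overlapped (log2 fold change 1.34, limma adjusted p = 0.0632). *Hormad1*, an axis protein, and *1700011F14Rik* were near 0, at 0.17 and -0.09. Against the same WT PreL libraries, 3 of the 11 fell and 1 rose in WT LZ (median -0.58), where 7.8% of all genes fell. In SKO PreL 0 fell and 1 rose (median 0.24).

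Repair and axis genes were mixed. Of 21 strand invasion genes 3 fell and 2 rose (median -0.64), of 16 synaptonemal complex, axis and cohesin genes 4 fell and none rose (median -0.43), and of 12 crossover genes 2 fell and 1 rose (median -0.30). Beside 12.1% lower and 17.5% higher over all genes, the strand invasion and crossover counts of calls were near the background. Many members lay lower by less than the fold threshold. Every SKO LZ library was below every WT PreL library in 12 strand invasion, 10 axis and 5 crossover genes. Every one was above in 4, 3 and 2 of them, beside 30.6% and 29.0% of all genes. In WT LZ against the same WT PreL libraries, 4 strand invasion, 2 axis and 2 crossover genes fell and 2, 0 and 1 rose. In SKO PreL 0 of each list fell and 3, 1 and 1 rose. *Psmc3ip* (also named *Hop2*), which with *Mnd1* helps the recombinases load, had 1322, 1209 and 1336 in SKO LZ and 3642, 4468 and 4560.1 in WT PreL (log2 fold change of -1.7, SE 0.13, limma adjusted p = 7.77e-06), while *Mnd1* rose (1.07) and so did *Rad51ap2* (1.59). *Rad51ap1* fell (-1.2) and so did *Rpa2*, a subunit of the single-strand binding complex (-1.19). The meiosis-specific recombinase *Dmc1* was not called, with 3154 ± 535 in SKO LZ against 3878 ± 503 in WT PreL (-0.3), and *Topbp1* was at -0.17.

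Within the synaptonemal complex, a pair of central element genes and a pair of cohesin genes fell. *Syce2* of the central element had 9700.2, 12383 and 13284 in SKO LZ and 25503, 32340.2 and 50404 in WT PreL (log2 fold change of -1.57, SE 0.23, limma adjusted p = 0.000273), and *Syce1*, its partner, had 3408, 4479.7 and 4719 against 12108, 11099.5 and 9086 (-1.36). The central element genes *Syce3* (-0.39), *Tex12* (-0.11) and *4930447C04Rik* (also named *Six6os1*, 0.84) were not called. The meiotic cohesin subunits *Rad21l* (-1.41) and *Smc1b* (-1.26) fell too. *Sycp1*, the transverse filament, was at 0.32, and the lateral elements *Sycp2* and *Sycp3* were at -0.06 and 0.88, none of them called. *Sycp3* had 55305, 80338 and 84724 in SKO LZ, with replicate 1 lowest, against 45993, 35459.8 and 36989.6 in WT PreL, without overlap. In the crossover list *Cntd1*, a cyclin-like factor of crossover sites, fell (-2.22), as did the nuclease *Mus81* (-2.0), on 12, 26 and 21 and 10, 11 and 14 reads in SKO LZ, and *Brip1*, a helicase, rose (1.47). *Tex11* (-0.61), *Msh4* (-0.4), *Ccnb1ip1* (-0.15) and *Msh5* (0.14) were not called. Of 8 telomere attachment genes, with calls likewise near the background, 1 fell, *1700123I01Rik* (also named *Majin*, -1.96), and 1 rose, the shelterin *Terf2ip* (1.51), with *Terf1* at 0.28. The median of the 8 was -0.67, and 4 of them lay below WT PreL without overlap and 2 above. With the calibrated values as deposited, no gene of the break, repair, axis, crossover or telomere lists was lower and their medians were 0.68 to 1.27.

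DNA replication genes were lower as a group, relative to the median gene. Of 40 tested, 19 fell and 1 rose, beside 12.1% and 17.5% of all genes, their median log2 fold change being -0.96. Of the 40, 33 had every SKO LZ library below every WT PreL library, where 30.6% of all genes did. *Gins2* (chr8:120578633-120589304, minus strand), a subunit of the replicative helicase, fell most, with 202, 359 and 356 in SKO LZ against 1641, 1794 and 1957 in WT PreL (log2 fold change of -2.56, SE 0.23, limma adjusted p = 1.52e-05). *Rfc2*, of the clamp loader, had 822, 973 and 873 against 3417, 2781 and 2212 (-1.63), and *Prim1*, a primase subunit, had 1916, 2768 and 2686 against 8817, 5755 and 7534 (-1.58). In these 3 genes SKO LZ replicate 1 was the lowest library, and the groups did not overlap. *Rrm2*, which makes deoxynucleotides, *Cdc6*, which licenses origins, and *Gins3* fell by similar amounts, at -1.48, -1.35 and -1.44.

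Several other members of the list were not called. The sliding clamp *Pcna* was not called at -0.95 (log2 fold change of -0.95, SE 0.13, limma adjusted p = 0.00016), and *Mcm5* and *Mcm2* of the MCM ring were at -0.33 and -0.1. *Pola1*, the polymerase alpha catalytic subunit, was at 0.05 and its partner *Pola2* rose (2.09). Leaving out 1 library gave 16 to 22 genes of the list lower. Summed, the list stood at 131822 to 140394 in SKO LZ, 194128 to 227852 in WT PreL, 141002 to 168642 in SKO PreL and 106490 to 134331 in WT LZ. Against the same WT PreL libraries, 20 of the 40 fell in WT LZ, where 7.8% of all genes fell, and 2 in SKO PreL. With the calibrated values as deposited none was lower and the median was 0.64, so the fall is one relative to the median gene.

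Promoters were searched for motifs in the 250 bases before each start (RefSeq, GRCm38.p6, both strands). The E2F-type motif, TTTCCCGC or TTTGGCGC, was in 6 of 30 replication promoters (20%) and in 2 of the 13 of them whose genes fell, beside 3.00% of 10092 promoters of tested genes and 1.51% of all 27025. CNCCTCAG, a motif known for STRA8, was in 8 of 56 early meiotic promoters (14.3%) and in 2 of 13 that fell, beside 8.93% of tested genes. The other way round, CNCCTCAG was in 3 of 30 replication promoters (10%) and in 2 of 13 that fell, and the E2F-type motif was in 7 of 56 early meiotic promoters (12.5%) and in 1 of 13 that fell. Over all genes called lower the shares were 2.89% for the E2F-type motif and 9.34% for CNCCTCAG, near those of tested genes. Shown are 4 windows, the E2F-type matches of replication genes that fell and the CNCCTCAG matches of early meiotic genes that fell, each of 30 bases with the match in capitals, read in the sense of the gene. They lie at chr11:98908002-98908031 on the plus strand and chr8:95633507-95633536 on the plus strand for the first motif, and at chr6:126939627-126939656 on the minus strand and chr8:84872208-84872237 on the plus strand for the second. The *Syce2* match shares 3 bases with a match of the first motif.
Cdc6: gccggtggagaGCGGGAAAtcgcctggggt
Gins3: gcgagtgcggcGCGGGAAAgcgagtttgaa
Rad51ap1: cacgcaggcgcCGCCTCAGgcaggcgagcg
Syce2: cgcagagggcgCTGAGGCGggaaaagacgg
A match is a description of the letters and not a site of binding.

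Mitotic genes did not fall with the replication genes. Of 27 tested none fell and 8 rose, beside 12.1% and 17.5% of all genes, with a median of 0.32. *Ccnb1*, the cyclin of mitotic entry, had 14911, 18265 and 15833 in SKO LZ and 3453, 2727 and 3117 in WT PreL (log2 fold change of 2.4, SE 0.13, limma adjusted p = 1.38e-06). *Plk1*, a mitotic kinase, had 2125, 1724 and 1565 against 642, 405 and 487 (1.81). *Cdc20* and *Ube2c*, which act with the anaphase-promoting complex, rose as well (1.32 and 1.61), and the checkpoint kinase *Bub1* was at 0.06. The groups did not overlap for any of the 4 risen genes. *Ccnb1* had means of 9383 in WT SPG, 11398 in SKO PreL and 8002 in WT LZ, so WT PreL was the lowest of the 6 groups.

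Markers of undifferentiated spermatogonia were higher in the mutant LZ sort. Of 22 in the table, 13 had enough reads to test, and a gene near 0 in WT PreL could pass only on its SKO LZ reads. Of the 13 tested, 8 rose and 1 fell, with a median of 1.47, beside 17.5% of all genes higher. *Ret*, the signalling receptor for GDNF, had 316, 375 and 171 in SKO LZ and 4.78, 15.3 and 2.66 in WT PreL (log2 fold change of 4.08, SE 0.48, limma adjusted p = 6.81e-05). *Lin28a*, an RNA-binding protein of progenitors, had 417, 412 and 346 against 57.3, 30.6 and 7.99 (3.45). *Upp1* (3.68), *Nanos3* (2.36) and *Zbtb16*, the gene for PLZF (1.47), rose too. In each of these genes the 3 SKO LZ libraries were above the 3 WT PreL libraries. The levels were low, with 2, 6 and 1 reads of *Ret* and 24, 12 and 3 of *Lin28a* in WT PreL. *Gfra1*, the GDNF co-receptor, had too few reads for the test (1, 10 and 3 in SKO LZ, 15, 1 and 0 in WT PreL), *Id4* was at 0.8 with overlap, *Taf4b* at 0.06, and *Tspan33* fell (-1.22).

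Sertoli, Leydig and stromal markers had the highest medians of all the gene lists. All 17 Sertoli cell genes tested rose (median 3.08), 13 of 19 Leydig cell genes (2.51), 12 of 14 stromal genes (2.63) and 6 of 10 peritubular genes (1.22), against 17.5% of all genes, and 1 gene of these lists fell, *Actg2* of smooth muscle (-2.51). The table held 22, 20, 19 and 15 genes of these lists, and those not tested averaged under 10 reads. A gene near 0 in WT PreL could pass that filter only on its SKO LZ reads, so these shares partly follow from the filter. Leaving out 1 library gave 15 to 18 Sertoli, 10 to 14 Leydig, 11 to 13 stromal and 4 to 6 peritubular genes higher, which need not be the same genes. Their medians were positive under each scaling run, at 2.63 to 4.37 on the calibrated values as deposited.

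Sertoli cells are the nurse cells of the tubule. *Sox9*, a transcription factor that specifies them, had 1454, 1402 and 1155 in SKO LZ and 40.6, 35.7 and 170.4 in WT PreL (log2 fold change of 4.17, SE 0.45, limma adjusted p = 4.56e-05). *Clu*, a secreted chaperone they express strongly, had 7772, 10378 and 7795 against 1299, 1155 and 1269.8 (2.78), and *Wt1* had 1537, 1539 and 1243 against 66.9, 239.6 and 138 (3.35). Each SKO LZ library was far above each WT PreL library in all 3. *Gata1* (3.8) and the inhibin subunit *Inha* (3.41) rose, and *Ctsl* rose least (1.07) and missed the fold threshold without SKO LZ replicate 2 (limma adjusted p = 0.000589). *Amh*, a marker of immature Sertoli cells, had 0 reads in the 6 libraries. The Sertoli list summed to 59213 to 70954 in SKO LZ, 11769 to 14471 in WT PreL and 27189 to 80788 in WT LZ, so the WT sort with the same gate held it too.

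Leydig cells make testosterone. The steroid enzymes *Cyp17a1* and *Cyp11a1* had 1069, 2429.6 and 2549.5 and 468, 932 and 1389 in SKO LZ, with replicate 1 lowest of the 3, and 0, 191 and 63.9 and 0, 38.2 and 98.5 in WT PreL. Their log2 fold changes were 5.16 (SE 0.84) and 4.52 (SE 0.73). *Star*, which brings cholesterol into mitochondria (2.53), and the hormone *Insl3* (3.22) rose, and so did *Hsd3b6* (5.58) and *Hsd3b1* (4.43), near-identical paralogs whose reads may be shared. *Cyb5b* was at 0.01. Among the genes with the largest increases over the whole table, *Akr1cl* (5.46), *Vcam1* (4.82), the iron-sequestering lipocalin *Lcn2* (5.4), *4930583H14Rik* (4.87) and *Basp1* (4.46) were outside these lists. *Expi* had 0 reads in every WT PreL library and 18, 591 and 88 reads in SKO LZ, at least 455-fold higher, with replicate 2 apart from the others.

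Among other somatic classes, the stromal median (2.63) was near the Leydig one (2.51), and the peritubular (1.22) and macrophage (0.45) medians were lower. *Acta2*, the actin of peritubular myoid cells, had 386, 231 and 278 in SKO LZ and 0, 15.3 and 85.2 in WT PreL (3.39), *Actn1* rose (3.85), and *Cald1* rose (2.89) but was lost without SKO LZ replicate 1 or 3 or WT PreL replicate 1 or 2 (limma adjusted p 0.0507 to 0.0698). *Tagln* was at 0.35 and *Tpm1* at 0.75, and *Myh11* had too few reads to test. In stroma *Ptgds* (3.85), *Col3a1* (3.5), *Col4a1* (3.44), *Pdgfra* (2.55) and *Dcn* (2.13) rose, *Fn1* was at -0.54, and *Col1a1* had 6, 19 and 10 reads in SKO LZ against 1, 7 and 0. Macrophage genes were mostly not called. Of 14 tested 2 rose, *Tyrobp* (1.91) and *Mrc1* (2.32), a share near the 17.5% of all genes. *Mrc1* was lost in 4 of the 6 sets without 1 library (limma adjusted p 0.0514 to 0.0781 in those without SKO LZ replicate 1 or 2 or WT PreL replicate 1 or 2). *Cd74* (-1.28), *Cd68* (-0.43), *Csf1r* (1.4) and *H2-Ab1* (-0.57) were not called, and the list summed to 1435 to 3077 in SKO LZ and 1392 to 2707 in WT PreL. Of 14 endothelial genes only *Egfl7* had enough reads (-0.26), *Cdh5* and *Kdr* had too few, and *Pecam1* had 0 reads in WT PreL and 1, 2 and 0 in SKO LZ.

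**Figure D3:**
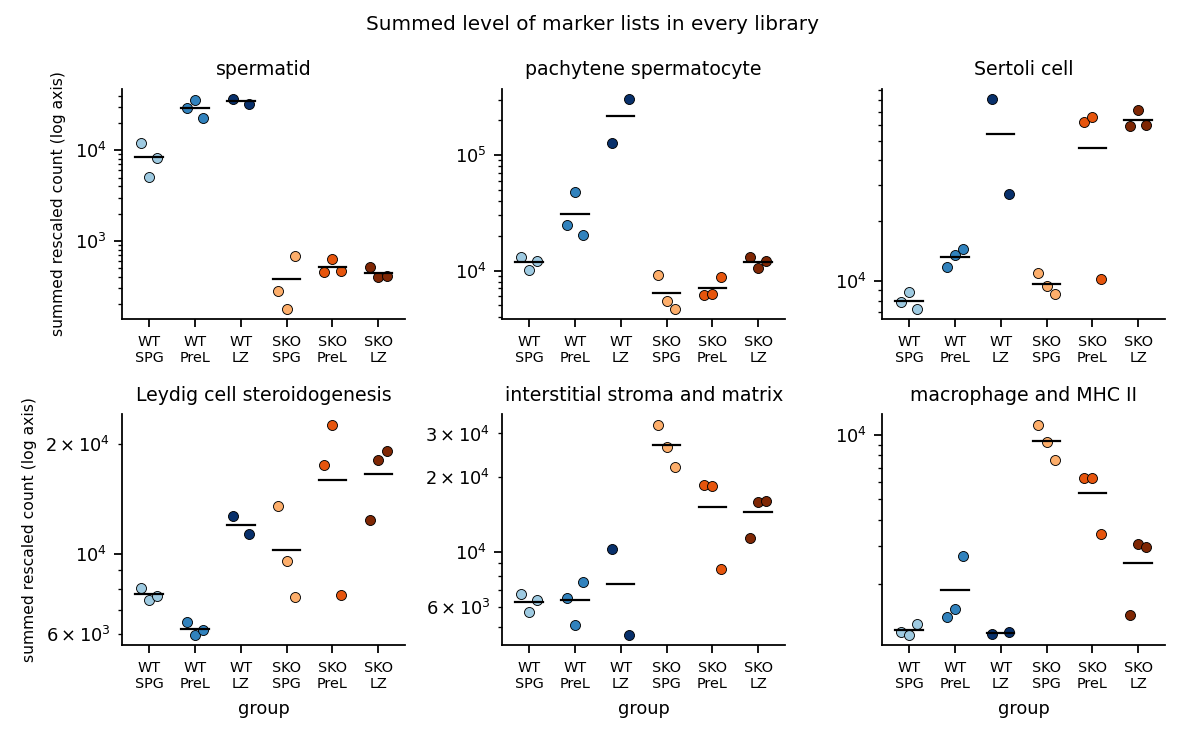
Summed rescaled count of marker lists in each of the 17 libraries on a log axis, 1 panel a list. The Sertoli sum is 59213 to 70954 in SKO LZ against 11769 to 14471 in WT PreL, and the spermatid sum is 400.1 to 512 in SKO LZ against 22494 to 35569 in WT PreL.

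Immediate early genes, which cells switch on within minutes of a stimulus and which also respond to tissue dissociation, rose as a set. Of 19 tested, 17 rose and none fell, beside 17.5% and 12.1% of all genes. Their median was 2.28, and 15 to 17 rose when 1 library was left out. In 18 of the 19 every SKO LZ library was above every WT PreL library, as in 29.0% of all genes. *Fos*, *Jun* and *Fosb* are subunits of AP-1. *Fos* had 2833, 3861 and 3802 in SKO LZ and 516, 665 and 783 in WT PreL (log2 fold change of 2.41, SE 0.19, limma adjusted p = 7.23e-06), and *Jun* had 519, 470.2 and 478 against 11.9, 20.4 and 47.9 (3.88). *Egr1* had 2163, 2285 and 2476 against 229, 482 and 397 (2.67). SKO LZ replicate 1 was the lowest SKO library for *Fos* and *Egr1*, yet above each WT PreL library. *Fosb* (2.14), *Egr2* (3.76) and *Ctgf* (3.42) rose and *Btg2* was at -0.25. The list summed to 15866 to 17710 in SKO LZ, 5003 to 6378 in WT PreL, 3651 to 6564 in WT LZ, 11962 to 21165 in SKO SPG and 5870 to 13312 in SKO PreL. The Sertoli sum was higher in the same SKO LZ libraries (59213 to 70954 against 11769 to 14471 in WT PreL), and it was 27189 to 80788 in WT LZ and 8689 to 10999 in SKO SPG. The undifferentiated spermatogonia list summed to 13918 to 15100 in SKO LZ, 9769 to 12251 in WT PreL and 9377 to 10144 in WT LZ. It summed to 12259 to 14192 in SKO PreL, which overlaps SKO LZ. The spermatogonia sorts were lower than SKO LZ, at 9247 to 11214.5 in WT SPG and 9014 to 10551 in SKO SPG. The part of Sertoli transcripts in the rise of the immediate early and spermatogonial lists was not tested.

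Stress groups were near the background. Of 18 p53 target genes 1 fell and 4 rose (median 0.15), beside 12.1% lower and 17.5% higher of all genes. *Cdkn1a*, the cell cycle inhibitor p21, fell (-1.29), *Mdm2*, the p53 ligase, was at 0.22 and *Bax* at -0.08, and the risen included *Zmat3* (2.65) and *Tnfrsf10b* (2.0). *Eda2r* rose (1.81) but was lost in 5 of the 6 sets without 1 library, all but that without WT PreL replicate 1 (limma adjusted p 0.0702 to 0.129). Of 17 ATF4 targets 1 fell, *Mthfd2* (-1.01, below the fold threshold without SKO LZ replicate 1 or 2, limma adjusted p 0.000868 to 0.000975), and 4 rose. *Trib3*, a pseudokinase, rose (2.66), with *Atf5* (1.64) and *Cebpb* (1.63, lost without SKO LZ replicate 2, limma adjusted p = 0.057), while *Atf4* (0.17), *Ddit3* (0.02) and *Ppp1r15a* (0.01) were not called.

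The ribosome biogenesis list, the machinery of the nucleolus where the NAT10 protein resides, had 2 of 51 genes lower and 1 higher (median -0.06), fewer than the 12.1% and 17.5% of all genes. *Rrn3*, an RNA polymerase I factor, had 2889.8, 2533 and 2662 in SKO LZ and 3422, 9308 and 12844 in WT PreL (-1.46), with WT PreL replicate 1 well below the other WT libraries. *Bms1* fell (-1.07) and *Rrp9* rose (1.22), and *Fbl* (0.17), *Nop56* (-0.04), *Ncl* (0.39) and *Tcof1* (0.02) were not called. In the piRNA and germ granule list 2 of 19 fell and 1 rose (median -0.01). *Tdrd6* had 6.32, 16.5 and 14.6 against 287, 905 and 458 (log2 fold change of -4.51, SE 0.47, limma adjusted p = 3.42e-05) and *Piwil1*, the PIWI protein of pachytene cells, had 278, 181 and 171 against 809.6, 2702 and 522 (-2.3). Both were highest in WT PreL replicate 2, the library with the highest pachytene sum. *Pld6* rose (1.21), though without WT PreL replicate 4 it missed the fold threshold (limma adjusted p = 0.042), and *Mael* (0.16), *Piwil2* (0.19), *Tdrd1* (0.23) and *Tdrd7* (-0.01) were not called. Of 28 germ cell identity genes 2 fell, *Tex15* and *Boll* (-1.15, below the fold threshold without SKO LZ replicate 1 or WT PreL replicate 4, limma adjusted p 0.016 to 0.0194), and 4 rose, among them *Mageb4* (2.1), *Usp26* (1.24) and *Nanos3*, with *Taf7l* at -0.01.

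A few genes took a large share of the mutant reads. The 100 genes with the highest mean took 36.7%, 29.8% and 32.8% of reads in SKO LZ replicates 1, 2 and 3 and 15.4% to 18.5% in WT PreL. *Nip7*, a ribosome biogenesis factor, had 103183, 100853 and 103811 reads in SKO LZ, alike in number although replicate 2 held the most reads in all, and 43118, 54175 and 54527 in WT PreL (log2 fold change of 2.02, SE 0.28, limma adjusted p = 0.000185). *Gm16702* (1.94), *Slc7a14* (1.57), *A630055G03Rik* (1.87), *Dclre1c* (1.93) and *Bcas2* (1.66) were likewise among the 10 genes with most reads in both sorts, and *Lcmt2* (2.2), *Slfn5* (2.33), *Gm15645* (1.97) and *A330069E16Rik* (1.85) were in SKO LZ. In WT PreL the others were the histone variant *H3f3b* (-1.71), the nucleosome-binding *Hmgn2* (-1.8), *Hsp90aa1* (0.2) and *Sub1* (0.65), of which *H3f3b* and *Hmgn2* fell. *H3f3b* and *Hmgn2* have near-identical copies in the genome.

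Reads of many risen genes did not follow library size among the mutant libraries. For genes averaging 100 or more reads in SKO LZ, the ratio of reads in replicate 2 to reads in replicate 1 had a median of 1.53, and the lowest 5% lay under 0.988. For genes called higher the median was 1.2, and 517 of 1028 (50.3%) were under 1.2, beside 8 of 375 called lower (2.13%) and 942 of all 6646 (14.2%). The limit of 1.2 was chosen after the values were seen. The ratio was 0.977 for *Nip7*, 0.916 for *Brip1*, 1.06 for *Pola2*, 1.01 for *Zmat3*, 1.03 for *Tnfrsf10b* and 1.17 for *Inha*. It was 1.31 for *Terf2ip*, 1.66 for *Rad51ap2*, 1.88 for *Ccnb1*, 1.78 for *Ccnd2*, 1.48 for *Sox9* and 1.62 for *Egr1*. Those of *Terf2ip* and *Sox9* lay under the median of 1.53. Among risen genes with this many reads, Leydig genes were at 1.79 (*Fdx1*) or above and immediate early genes at 1.34 (*Klf4*) or above. Of the risen Sertoli genes, *Rhox8* (1.12) and *Inha* were lowest. In lists where few members rose, *Brip1*, *Pola2*, *Zmat3* and *Tnfrsf10b* were low, while *Rad51ap2* and *Ccnd2* lay above the median. The part of these ratios in the calls was not tested.

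Genes of the X chromosome were higher as a group. Of 515 tested, 141 rose (27.4%) and 35 fell (6.80%), with a median log2 fold change of 0.32, beside 16.9% and 12.3% of 11857 autosomal genes and a median of -0.05. SKO PreL against the same WT PreL libraries gave an X median of 0.24 and WT LZ one of -0.59.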

How the data were processed

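Spermatogenic cells were sorted by FACS after Hoechst and propidium iodide staining, and polyadenylated RNA was amplified by Smart-seq2 with ERCC RNA added to the lysate. The deposited values are counts that the authors scaled with the ERCC reads, so each is a signal per gene and not a raw count, and no ERCC rows are in the table. The submitters' processing notes list TopHat2 2.1.1, Cufflinks 2.2.1, HTSeq 0.11.2 and DESeq2, and builds mm9 and mm10, of which the study's methods name mm10. Whether counting used strand is not given in the sources used here.

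Whole reads were recovered by dividing each column by its smallest value above 0, and 100% of values came out whole within 0.001. Genes averaging 10 or more reads over the 6 libraries were kept. The main test was limma 3.58.1 (R 4.3.3) with a mean-variance trend on log2(deposited value / median-of-ratios factor + 10), so folds of low genes are understated. Genes were called at an adjusted p (Benjamini-Hochberg) under 0.05 and a log2 fold change beyond 1. As alternatives, edgeR 4.0.16 and DESeq2 1.42.0 were run on recovered reads, with other scalings, pseudocounts and filters. On simulated data for this comparison with 12162 genes, limma recovered 177 of 190 tested changed genes with 6 false calls. The simulation drew both groups from the WT PreL profile, with the same dispersion for every gene and 200 genes changed, equally up and down. The wider difference in composition between the real sorts was not simulated. Libraries of 1 group differed by more than sampling noise (chi-square over its degrees of freedom, 6.3 to 38.3), so none was counted as a repeat.

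The comparison and the gene lists were chosen with earlier results of these data known, so the lists are a description. Named genes are *Nat10*, the 10 largest changes in each direction among non-overlapping genes averaging 100 or more reads, the 10 genes with most reads in each sort, and in each list the defining genes, the 3 largest changes and the smallest, of which some are not reported here. Other genes were named after their values were seen, such as *Rpa2*, *Mnd1*, *Syce1*, *Smc1b*, *Prim1*, *Gins3* and *Zcwpw1*. Of 23282 symbols, 20857 matched GENCODE M21 (GRCm38) directly and 1919 by older symbols. Exons of 48 of 185 named genes overlap an annotated gene on the other strand, among them *Tnp1*, *Gins2*, *Psmc3ip*, *Cntd1*, *Mus81*, *Jun* and *Rfc2*, and their reads are uncertain.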

Additional observations from a re-analysis of the deposited data

How the results depend on the processing

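Between SKO LZ and WT PreL, genes lower numbered 524 and genes higher 9100 with the ERCC-calibrated values as deposited, 949 and 1252 with a minimum mean of 50 reads, and lower genes 3208 with no fold threshold. The fall in number with the higher minimum goes with fewer genes tested (9178 of 12527), and the cause of the other shifts was not tested beyond the median shift of 1.51 that the as-deposited scale brings. Higher genes numbered 3056 with no fold threshold, all other alternatives gave 1293 to 1646 lower and 1926 to 2763 higher, leaving out 1 library gave 1282 to 1662 lower and 1868 to 2234 higher, and edgeR gave 1467 and 2021 and DESeq2 1484 and 2098. SKO LZ against SKO PreL called 2184 genes, 4561 on the as-deposited scale and 4606 with no fold threshold. Against WT SPG it called 3727, then 9494, 6375 and, with a mean of 50 reads, 2330. Against SKO SPG it called 3403, then 10077 on the as-deposited scale and 5885 with no fold threshold. The median distance to WT PreL was 2.14 on the as-deposited scale, 2.01 with a pseudocount of 1 and 1.08 with 50, and the mean position of SKO LZ on genes higher in WT LZ was 12.6% and 7.54% with those pseudocounts (about 10% as reported). The ratio of calibrated totals was 3.06 without the 100 most abundant genes and 3.51 to 3.98 without 1 library.

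SKO LZ and WT PreL share only the replicate numbers 1 and 2, and libraries with the same number did not deviate together (correlations -0.031 and -0.026), so the numbers pair nothing. With the replicate number as a block 1613 genes were lower and 2136 higher. Of the named genes tested, 45 changed sign on the as-deposited scale, and 39 of these were called on that scale, on the reported one or on both. The log2 fold changes of the 39 were there *1700011F14Rik* 1.5, *2410076I21Rik* 0.573, *Bax* 1.5, *Bms1* 0.517, *Boll* 0.424, *Btg2* 1.34, *Ccdc36* 0.445, *Ccnb1ip1* 1.43, *Cdc6* 0.237, *Cdkn1a* 0.243, *Dmc1* 1.29, *Egfl7* 1.28, *Fn1* 1.06, *Gins3* 0.121, *Mcm2* 1.49, *Mcm5* 1.26, *Mei1* 0.479, *Msh4* 1.13, *Mthfd2* 0.582, *Mybl1* 1.42, *Nop56* 1.55, *Prim1* 0.0158, *Rad21l* 0.103, *Rad51ap1* 0.387, *Rpa2* 0.405, *Rrm2* 0.114, *Rrn3* 0.133, *Smc1b* 0.339, *Syce1* 0.236, *Syce2* 0.0299, *Syce3* 1.2, *Sycp2* 1.54, *Taf7l* 1.59, *Tdrd7* 1.57, *Tex12* 1.49, *Tex15* 0.496, *Topbp1* 1.43, *Tspan33* 0.341 and *Zcwpw1* 0.594. On that scale 33 calls were lost, with or without a change of sign, and 51 were gained. Under the other alternatives 21 named genes changed sign, none of them called with either sign and none beyond 0.43 in size as reported. SKO LZ libraries are shallow, 1 read being worth up to 6.32 units, and genes averaging under 10 reads over the 6 libraries were not tested.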
